A study of Mus musculus with 14 samples.

Results

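The BCL2 family decides whether a cell keeps its mitochondria intact or commits to apoptosis, and Bcl2l11, which encodes BIM, lies beside the long noncoding RNA gene Morrbid. The genes described here are 10 other members of the family, chosen by their gene symbols: the 5 anti-apoptotic genes Bcl2, Bcl2l1, Mcl1, Bcl2a1b and Bcl2a1d, and the 5 pro-apoptotic genes Bmf, Bbc3, Pmaip1, Bax and Bak1. All 10 were listed among the 15036 genes of the study's tables. The question for each was whether its RNA differed between libraries labelled Morrbid-/- and wild-type libraries, and whether the balance of the anti- and pro-apoptotic genes differed with it.

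The libraries were made from naive CD8 T cells (CD62L high, CD44 low), the resting precursors of cytotoxic T cells, sorted from the spleens of C57BL/6 mice. All cells were stimulated for 6 h in culture with anti-CD3 coated on the plate and anti-CD28 in solution, at 1 µg/mL each, antibodies that stand in for antigen receptor and costimulatory signals. The groups were 4 libraries labelled Morrbid-/- and 4 wild-type libraries with 20 ng/mL IFN-beta, a type I interferon, and 3 libraries labelled Morrbid-/- and 3 wild-type libraries without it. The labels give neither how the Morrbid allele was made nor whether replicates came from separate animals, so each p-value covers the spread among these libraries, some or all of which may be technical.

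BCL2, BCL-XL (from Bcl2l1), MCL1 and A1 (from the Bcl2a1 copies) hold the mitochondrial outer membrane closed by binding the pro-apoptotic proteins. BAX and BAK (from Bak1) are the effectors that open pores in that membrane and release cytochrome c. BMF, PUMA (from Bbc3) and NOXA (from Pmaip1) belong, like BIM, to the BH3-only proteins, which bind the anti-apoptotic proteins through a short helix, the BH3 motif, and so free the effectors. In T cells BCL2 sustains naive cells, while MCL1, BCL-XL and A1 are known to be induced by activation signals.

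The motif that these proteins share is written in their coding sequences, and the stretches below show how far the genes resemble each other at that motif. Each is 36 bases of coding sequence on the gene's own strand, read from GENCODE M21 transcripts of GRCm38. The capitals mark the 6 codons of the motif core, which were found as leucine, any 2 residues, then isoleucine, valine, methionine or alanine, then glycine or alanine, then aspartate.
Bcl2, chr1:106712575-106712610, minus strand: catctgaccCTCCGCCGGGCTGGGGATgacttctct
Bcl2l1, chr2:152829697-152829732, minus strand: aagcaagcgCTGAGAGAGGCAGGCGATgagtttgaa
Mcl1, chr3:95659427-95659462, plus strand: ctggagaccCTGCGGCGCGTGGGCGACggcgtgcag
Bmf, chr2:118545100-118545135, minus strand: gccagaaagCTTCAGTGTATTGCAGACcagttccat
Bbc3, chr7:16313764-16313799, plus strand: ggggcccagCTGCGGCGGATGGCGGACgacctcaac
Bax, chr7:45465997-45466032, minus strand: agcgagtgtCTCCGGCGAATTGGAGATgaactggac
Bak1, chr17:27022531-27022566, minus strand: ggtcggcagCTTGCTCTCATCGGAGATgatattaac
The core was found in 8 of the 10 members. The residue before the aspartate was glycine in 6 of them and alanine in 2, Bmf and Bbc3. Pmaip1, the remaining match, is not shown, and it has glycine there although it too is a BH3-only gene. No match was found in Bcl2a1b or Bcl2a1d, which says only that these letters are not in their coding sequences.

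The pair Bcl2a1b and Bcl2a1d, by contrast, is nearly one sequence. Their coding sequences are both 516 bases long, differ at 6 of them and are 98.8% identical. The 45-base window below, coding bases 4 to 48, is shown because it holds 2 of those differences, in capitals.
Bcl2a1b, chr9:89199363-89199407, plus strand: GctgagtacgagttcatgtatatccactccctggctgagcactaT
Bcl2a1d, chr9:88731672-88731716, minus strand: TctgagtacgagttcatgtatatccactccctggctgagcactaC
Of all 75-base stretches of its transcripts, the read length of the study, 68.4% of those of Bcl2a1b and 67.6% of those of Bcl2a1d also occur in another gene, other Bcl2a1 copies among them. The counts of these 2 genes are therefore uncertain, since the authors' counting could split or drop such reads. The share was 12.8% for Bak1, 6.84% for Bax and 4.67% for Bcl2, each with an overlapping gene model, and 0 for the other 5 members. The Bcl2a1 copies Bcl2a1a and Bcl2a1c were not analysed here.

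The recovered reads per library numbered 7132515 to 7355337 in libraries labelled Morrbid-/- and 5788070 to 6918633 in wild-type libraries with IFN-beta, and without it 1747634 to 2443158 in libraries labelled Morrbid-/- and 2360619 to 2963149 in wild-type libraries. With IFN-beta the libraries labelled Morrbid-/- were thus the deeper ones without overlap. All 10 markers of CD8 T cells were present in both tables, with summed normalized counts of 10962 to 12620 in libraries labelled Morrbid-/- and 11548 to 12813 in wild-type libraries with IFN-beta. Morrbid itself, listed as Gm14005 without IFN-beta, had 7, 4 and 7 reads in libraries labelled Morrbid-/- and 2, 4 and 2 reads in wild-type libraries. These few reads go against the label, the deleted part of the gene is not given in the sources used here, and every direction below rests on the labels. With IFN-beta the gene was not analysed here.

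With IFN-beta, Bcl2 fell in libraries labelled Morrbid-/-, and it was the member of the family that passed the test. Its normalized counts, which are reads divided by the library's size factor, were 575.5, 585.6, 518.5 and 515.4 in libraries labelled Morrbid-/- and 728, 868, 975 and 780 in wild-type libraries. Every library labelled Morrbid-/- lay below every wild-type library. The means were 549 ± 37.0 in libraries labelled Morrbid-/- and 838 ± 108 in wild-type libraries (SD, n = 4 each). The log2 change was -0.60 (SE 0.08, 95% interval -0.77 to -0.43), a drop of 34.2%, with limma's adjusted p of 2.8e-05. The change rested on 2409 reads in libraries labelled Morrbid-/- and 3099 reads in wild-type libraries, and 3.68% of all genes tested changed at least as much. In these bulk samples, fewer cells of a type and less RNA per cell cannot be told apart. Bcl2 lies on chromosome 1 (GRCm38.p6, 106538176 to 106714290, minus strand), and 6.09% of its exonic bases overlap D630008O14Rik on the other strand. Whether the counting used strand is not given in the sources used here.

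None of the other 3 anti-apoptotic genes tested passed, and their means were higher or near equal in the same libraries. Bcl2l1, whose product BCL-XL protects activated T cells, had 50.4, 43.1, 49.4 and 35.6 normalized counts in libraries labelled Morrbid-/- and 31.9, 30.7, 29.2 and 28.3 in wild-type libraries. These groups did not overlap either, with means of 44.6 ± 6.85 in libraries labelled Morrbid-/- and 30.0 ± 1.58 in wild-type libraries (SD, n = 4 each). The log2 change was 0.54 (SE 0.19, 95% interval 0.14 to 0.95), from 196 reads in libraries labelled Morrbid-/- and 111 in wild-type libraries. It missed the threshold with limma's adjusted p of 0.078, and over the alternatives the adjusted p ran from 0.046 to 0.185. The lower end came from limma without the mean-variance trend, under which Bcl2l1 passed.

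Mcl1, the most abundant member, showed no such shift. It had 3983, 4151, 4218 and 4464 normalized counts in libraries labelled Morrbid-/- and 4187, 4290.5, 4147 and 4066 in wild-type libraries, and the groups overlapped throughout. The log2 change was 0.01 (SE 0.05), with a 95% interval of -0.10 to 0.12, and limma's adjusted p was 0.939. A change of Mcl1 as large as that of Bcl2 lies outside this interval.

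Bcl2a1b had 88.9, 76.1, 67.4 and 53.8 normalized counts in libraries labelled Morrbid-/- and 70.8, 41.0, 44.4 and 55.7 in wild-type libraries. The groups overlapped, and the log2 change of 0.44 (SE 0.19) had an adjusted p of 0.150 in limma. Bcl2a1d was near the detection limit, with 18 reads in all libraries labelled Morrbid-/- and 19 in all wild-type libraries, and was not tested. For both genes the shared sequence above limits what the count means.

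**Figure D1:**
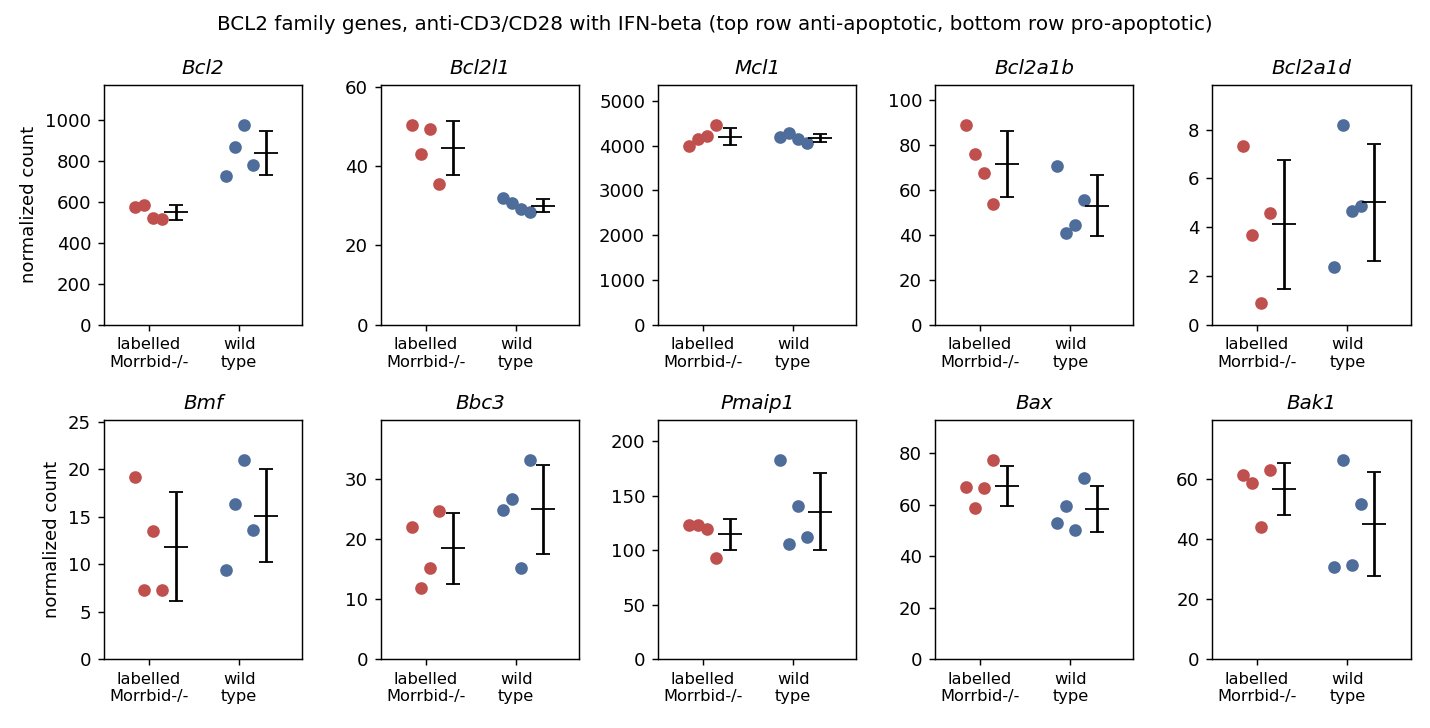
Normalized counts (y axis, from 0) of the 10 family members with IFN-beta, in libraries labelled Morrbid-/- (left of each panel) and wild-type libraries (right). Points are libraries and bars are mean ± SD (n = 4 each). The groups are apart for Bcl2 (lower in libraries labelled Morrbid-/-) and Bcl2l1 (higher mean, adjusted p 0.078) and overlap for the other 8 genes.

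None of the 5 pro-apoptotic members passed the test with IFN-beta. Among the BH3-only genes, Pmaip1, which encodes NOXA, a binder of MCL1 and A1, had 122.8, 122.8, 119.5 and 93.0 normalized counts in libraries labelled Morrbid-/- and 182.9, 105.5, 140.1 and 112.3 in wild-type libraries. Its log2 change was -0.21 (SE 0.15) with an adjusted p of 0.419 in limma. Bbc3, which encodes PUMA and is a known p53 target, had 22.0, 11.9, 15.3 and 24.6 normalized counts in libraries labelled Morrbid-/- and 24.8, 26.6, 15.2 and 33.2 in wild-type libraries. Its groups overlapped, and its log2 change was -0.42 (SE 0.29, 95% interval -1.01 to 0.18). Bmf had few reads, with 11.8 ± 5.73 normalized counts in libraries labelled Morrbid-/- and 15.1 ± 4.86 in wild-type libraries (SD, n = 4 each).

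The effector genes had higher means in libraries labelled Morrbid-/-, within their spread. Bax had 66.9, 58.7, 66.5 and 77.5 normalized counts in libraries labelled Morrbid-/- and 53.1, 59.4, 50.2 and 70.3 in wild-type libraries. Bak1 had 61.4, 58.7, 44.0 and 62.9 in libraries labelled Morrbid-/- and 30.7, 66.6, 31.5 and 51.8 in wild-type libraries. Neither gene separated the groups. The log2 changes were 0.21 (SE 0.16, 95% interval -0.12 to 0.54) for Bax and 0.39 (SE 0.22, 95% interval -0.07 to 0.84) for Bak1. An increase as large as the fall of Bcl2 lies within the interval of Bak1. Exon overlap with another gene model covered 12.2% of Bax. For Bak1 the overlaps, summed over gene models that are all named Ggnbp1, came to 25.5% of its exonic bases. A base that lies in more than 1 of these models is counted again in that sum, so the share covered can be smaller.

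In numbers, 1 of the 9 tested members passed with IFN-beta, Bcl2, against 10.1% of all 9964 genes tested. A share of 1 in 9 is near that background. At an unadjusted p under 0.05 in limma there were 3 of the 9, Bcl2, Bcl2l1 and Bcl2a1b, against 2434 of all 9964 genes. Of all genes tested, 5.25% were higher and 4.84% lower in libraries labelled Morrbid-/-. Among the genes called, 52.0% were higher, and 68.0% when libraries were rescaled to equal totals. The groups did not overlap for 2 of the 9, against 15.2% of all genes tested (7.58% higher and 7.6% lower in libraries labelled Morrbid-/-). The median absolute log2 change was 0.39 over the 9 members and 0.15 over all genes tested. These medians were not matched for level, and members with few reads had large errors (SE 0.36 for Bmf and 0.29 for Bbc3, against 0.05 for Mcl1). The anti-apoptotic members had a median log2 change of 0.22 and the pro-apoptotic members one of -0.21, with 1 and 0 genes called.

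Bim, in the same libraries, gives the scale. Bcl2l11 had 482, 420, 404 and 340 normalized counts in libraries labelled Morrbid-/- and 746, 687, 668 and 560.5 in wild-type libraries, which is a log2 change of -0.69 with an SE of 0.10 and, in limma, an adjusted p of 3.1e-05. Bcl2 and its antagonist Bcl2l11 were thus both lower in the same 4 libraries. The log2 difference of Bcl2 over Bcl2l11 was 0.42 ± 0.15 in libraries labelled Morrbid-/- and 0.33 ± 0.26 in wild-type libraries (SD, n = 4 each), and the groups overlapped.

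Without IFN-beta, none of the 10 members passed the test, in a comparison where 0.635% of all 9290 genes tested did (0.538% higher and 0.0969% lower in libraries labelled Morrbid-/-). At an unadjusted p under 0.05 there was 1 member of 10, Bmf, against 567 of all 9290 genes, and edgeR and DESeq2 on the recovered reads also called none. Bcl2 had 257.5, 231.8 and 219.0 normalized counts in libraries labelled Morrbid-/- and 267.3, 286.1 and 240.8 in wild-type libraries. On this scale its groups overlapped, with means of 236 ± 19.6 in libraries labelled Morrbid-/- and 265 ± 22.8 in wild-type libraries (SD, n = 3 each). The log2 change was -0.16 (SE 0.11, 95% interval -0.40 to 0.07; limma, adjusted p 0.913). The overlap depended on the scaling: as RPM, the reads of a gene scaled to the same total in every library, Bcl2 had 98.0 to 104.0 in libraries labelled Morrbid-/- and 105.6 to 116.5 in wild-type libraries, without overlap. Under that scaling the log2 change was -0.11 and the adjusted p 0.997 in limma.

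Bmf, whose product is a BH3-only sensor held by the cytoskeleton in healthy cells, was the member whose groups did not overlap without IFN-beta. It had 9.1, 6.5 and 8.2 normalized counts in libraries labelled Morrbid-/- and 12.5, 17.7 and 13.8 in wild-type libraries. These values rest on 22 reads in libraries labelled Morrbid-/- and 49 in wild-type libraries, and 10.9% of all genes tested had groups that did not overlap (5.53% higher and 5.39% lower in libraries labelled Morrbid-/-). The log2 change was -0.80 (SE 0.37, 95% interval -1.57 to -0.04) with an adjusted p of 0.779 in limma. An exact permutation test of 3 against 3 libraries gave its smallest possible two-sided p of 0.10.

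The other 8 members differed by less than the spread between replicates without IFN-beta. Mcl1 had 990, 877 and 953 normalized counts in libraries labelled Morrbid-/- and 1007, 839 and 827 in wild-type libraries, and its log2 change was 0.08 with a 95% interval of -0.12 to 0.29. Bcl2l1 had 31.4, 23.6 and 16.4 in libraries labelled Morrbid-/- and 17.0, 25.0 and 19.1 in wild-type libraries. Its log2 change of 0.19 had a 95% interval of -0.43 to 0.80, wide enough to hold the value seen with IFN-beta. Bbc3 had 54.7, 55.0 and 37.9 in libraries labelled Morrbid-/- and 42.0, 40.6 and 52.7 in wild-type libraries. Bax, Bak1, Bcl2a1b, Bcl2a1d and Pmaip1 had log2 changes between -0.05 and 0.11, each well within its error.

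**Figure D2:**
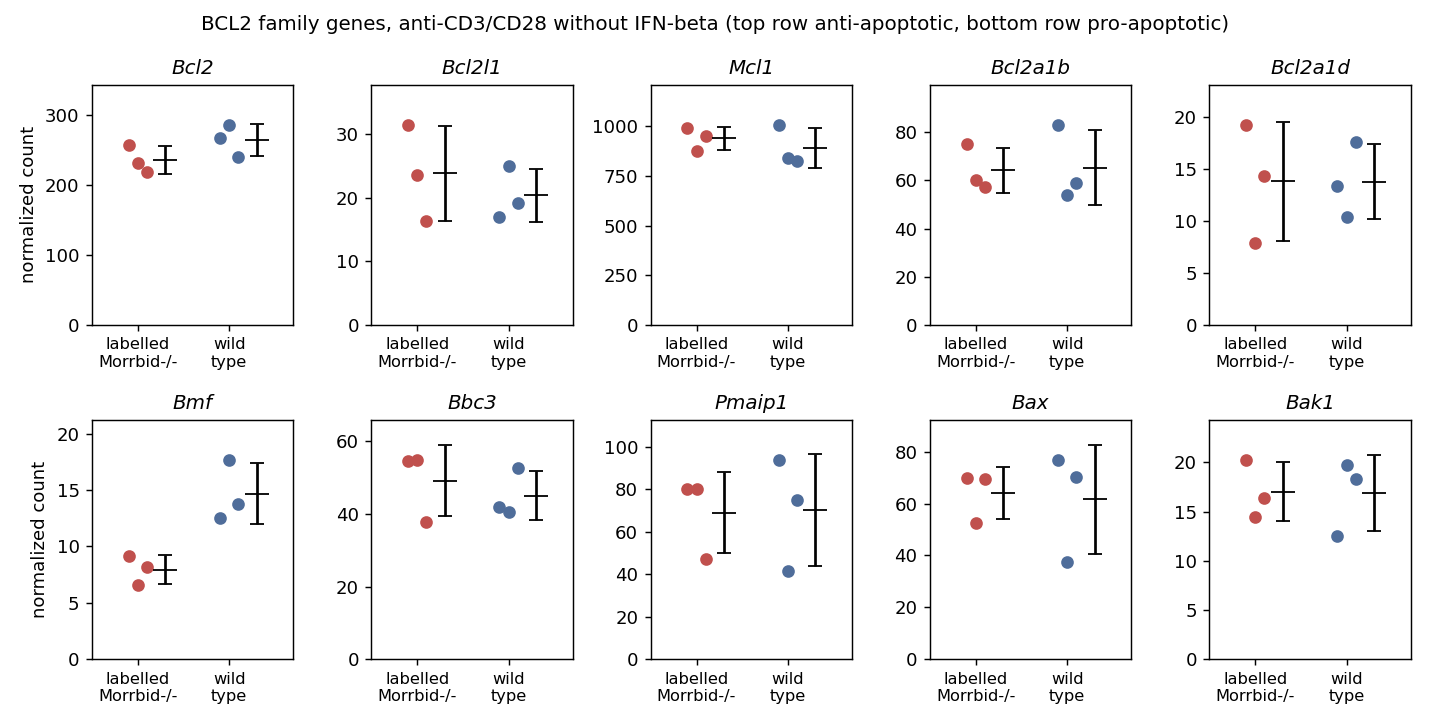
Normalized counts (y axis, from 0) of the 10 family members without IFN-beta, in libraries labelled Morrbid-/- (left of each panel) and wild-type libraries (right). Points are libraries and bars are mean ± SD (n = 3 each). Bmf is the panel in which the groups are apart, at 6.5 to 9.1 normalized counts in libraries labelled Morrbid-/- against 12.5 to 17.7 in wild-type libraries, and none of the 10 genes passed the test.

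The difference between the 2 settings was tested for each member as the genotype change with IFN-beta minus that without it, in 1 limma fit of all 14 libraries. None of the 9 members tested passed, against 1.33% of all 9078 genes tested (0.441% with a positive and 0.892% with a negative difference), and edgeR and DESeq2 called none. Bcl2 had the smallest p of the members, and was the 1 member of 9 with an unadjusted p under 0.05, against 1090 of all 9078 genes. Its difference was -0.44 (SE 0.14, 95% interval -0.72 to -0.16) with an adjusted p of 0.134. The fall of Bcl2 is thus not shown to differ between the settings. Of the others, Bbc3 had a difference of -0.53 (95% interval -1.32 to 0.26) and Bcl2a1b one of 0.45 (95% interval -0.14 to 1.04), and both intervals include 0. Bcl2l11 had a difference of -0.33 (SE 0.17) with an adjusted p of 0.440.

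**Figure D3:**
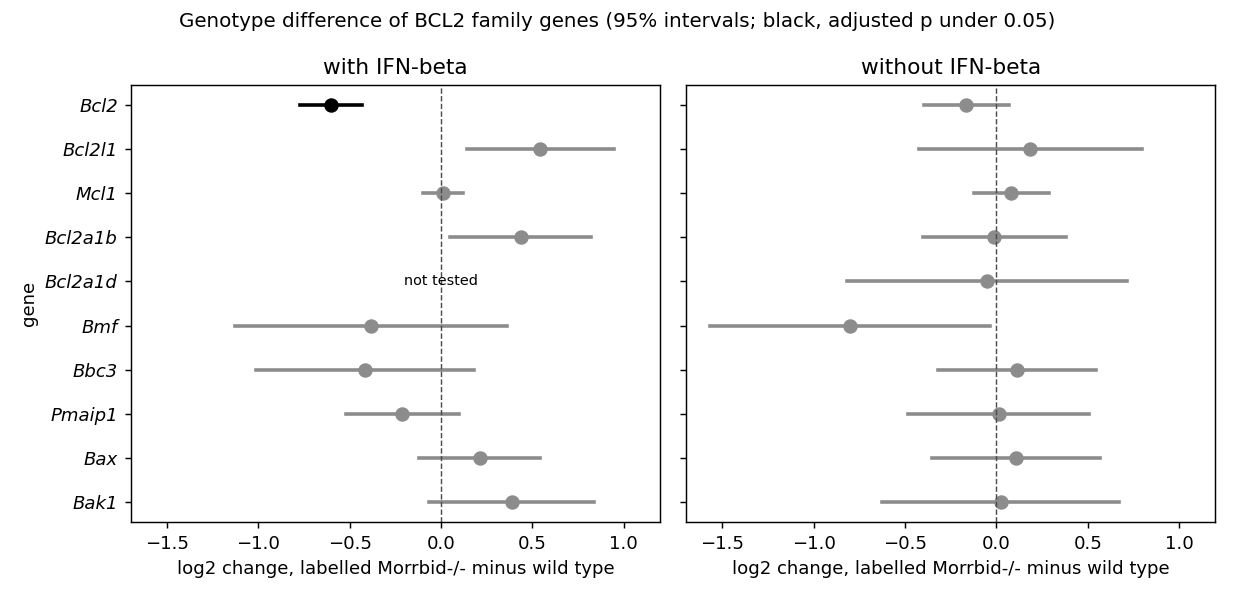
Log2 change (x axis, libraries labelled Morrbid-/- minus wild type) of each member (y axis) with IFN-beta (left panel) and without it (right panel). Points are limma estimates, lines their 95% intervals, and black marks an adjusted p under 0.05: only Bcl2 with IFN-beta, at -0.60, is black, and Bcl2a1d was not tested there.

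The balance of the arms was taken in each library as the mean log2(normalized count + 1) of the anti-apoptotic members minus that of the pro-apoptotic members, over the members with a mean of at least 10. With IFN-beta it was 2.75, 3.14, 2.93 and 2.71 in libraries labelled Morrbid-/- and 2.92, 2.53, 2.83 and 2.54 in wild-type libraries. Without IFN-beta it was 1.51, 1.32 and 1.45 in libraries labelled Morrbid-/- and 1.33, 1.44 and 1.15 in wild-type libraries. In both settings the groups overlapped.

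The group means of the balance were 2.88 ± 0.19 in libraries labelled Morrbid-/- and 2.70 ± 0.20 in wild-type libraries with IFN-beta (SD, n = 4 each), a difference of 0.18. Without IFN-beta they were 1.43 ± 0.10 in libraries labelled Morrbid-/- and 1.31 ± 0.15 in wild-type libraries (SD, n = 3 each), a difference of 0.12. With Bcl2l11 added to the pro-apoptotic arm, the balance with IFN-beta was 2.32 ± 0.16 in libraries labelled Morrbid-/- and 2.04 ± 0.16 in wild-type libraries, still with overlap. With levels summed per length instead of averaged as logs, the difference between genotypes was 0.0095 with IFN-beta and -0.0096 without it. The anti-apoptotic mean with IFN-beta, Bcl2 included, was 8.20 ± 0.13 in libraries labelled Morrbid-/- and 8.10 ± 0.06 in wild-type libraries. The balance is a score over chosen genes and was given no test.

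**Figure D4:**
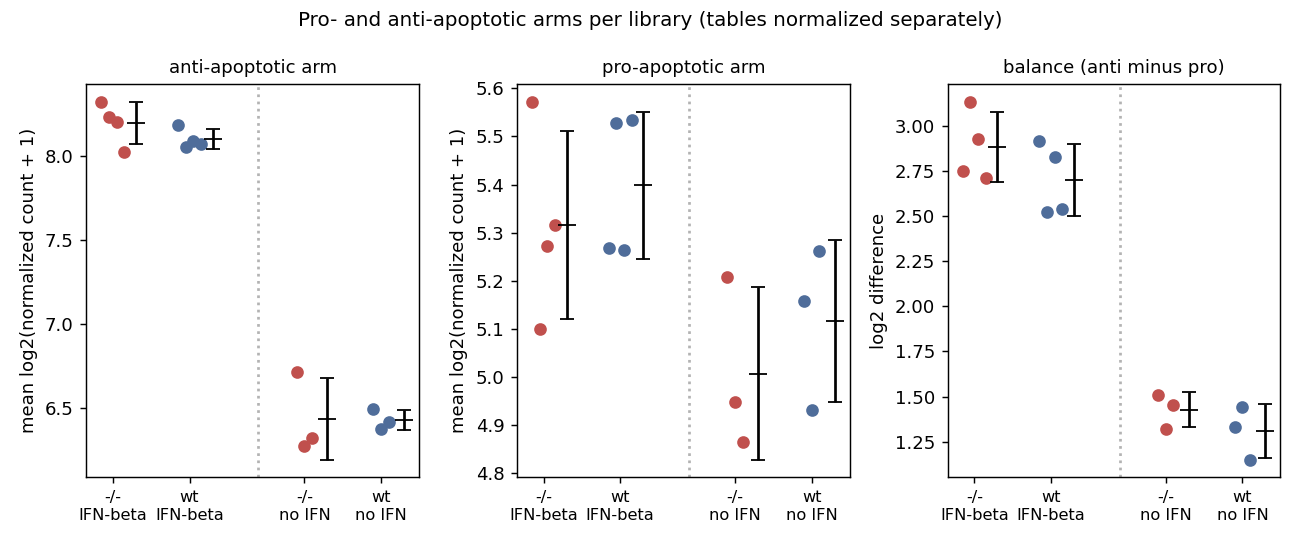
Mean log2(normalized count + 1) of the anti-apoptotic members (left), of the pro-apoptotic members (middle) and their difference (right) in each library, with libraries labelled Morrbid-/- (-/-) left of wild type (wt). Bars are mean ± SD (n = 4 each with IFN-beta, n = 3 each without), the axes do not start at 0, and the 2 tables were normalized separately and differ by Bcl2a1d, so their levels are not compared. Within each setting the groups overlap in the balance, at 2.71 to 3.14 in libraries labelled Morrbid-/- against 2.53 to 2.92 in wild-type libraries with IFN-beta.

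Compared per length, as normalized counts per kb of exon, Mcl1 stood above all other members in every group. With IFN-beta its level was 1230 ± 58.3 in libraries labelled Morrbid-/- and 1221 ± 27.3 in wild-type libraries (SD, n = 4 each). Its share of the summed level of the 10 members was 81.4% in libraries labelled Morrbid-/- and 80.9% in wild-type libraries. The share of Bcl2 in that sum was 3.97% ± 0.33 in libraries labelled Morrbid-/- and 6.07% ± 0.81 in wild-type libraries. Different genes held the next place. It was Bcl2a1b in libraries labelled Morrbid-/-, at 87.6 against 59.9 for Bcl2. These 2 genes narrowly did not overlap there, with 65.9 the lowest for Bcl2a1b and 64.0 the highest for Bcl2. In wild-type libraries it was Bcl2, at 91.5 against 64.8 for Bcl2a1b, with overlap. The place of Bcl2a1b is uncertain because of its shared sequence, and 49.1% of its exonic bases overlap Gm29094 on the same strand. Bax and Pmaip1 followed in both genotypes and overlapped each other. Bak1 was next, at 23.6 per kb in libraries labelled Morrbid-/- and 18.7 in wild-type libraries, and Bcl2l1, Bbc3, Bcl2a1d and Bmf were all below Bak1.

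Without IFN-beta the order of levels per kb was headed by Mcl1, at 275 ± 16.8 in libraries labelled Morrbid-/- and 261 ± 29.5 in wild-type libraries (SD, n = 3 each). Bcl2a1b came next in both genotypes, at 78.6 in libraries labelled Morrbid-/- and 80.0 in wild-type libraries. Bax, Bcl2, Pmaip1 and Bbc3 lay between 21.2 and 40.6, and from Bcl2 down each overlapped the next in that order in both genotypes, while Bax and Bcl2 did not overlap in libraries labelled Morrbid-/-. Bmf was the lowest of the 10, at 1.51 ± 0.25 in libraries labelled Morrbid-/- and 2.79 ± 0.51 in wild-type libraries.

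The tables with and without IFN-beta were normalized separately, so levels in them were set side by side as RPM and not tested. Mcl1 had 602 to 665 RPM over the 8 libraries with IFN-beta and 341 to 427 over the 6 without it. Bbc3 had 1.82 to 4.91 with IFN-beta and 16.5 to 24.0 without it. Bcl2a1b averaged 9.34 with IFN-beta and 27.2 without it, and Bax 9.41 with IFN-beta and 26.5 without it. These 4 genes and Bcl2a1d had ranges that did not overlap between the tables. Over both genotypes together, Bcl2 averaged 104 with IFN-beta and 105 without it, with overlapping ranges, but the genotypes differed in direction. In libraries labelled Morrbid-/- it averaged 83.4 with IFN-beta and 101 without it, without overlap. In wild-type libraries it averaged 124 with IFN-beta and 109 without it, with overlap. The tables also differ in depth, in the genes they hold and in the share of mitochondrial 16S RNA (from 9.05% of reads in the lowest library with IFN-beta to 18.9% in the highest without it), and the part of these in the levels was not tested.

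**Figure D5:**
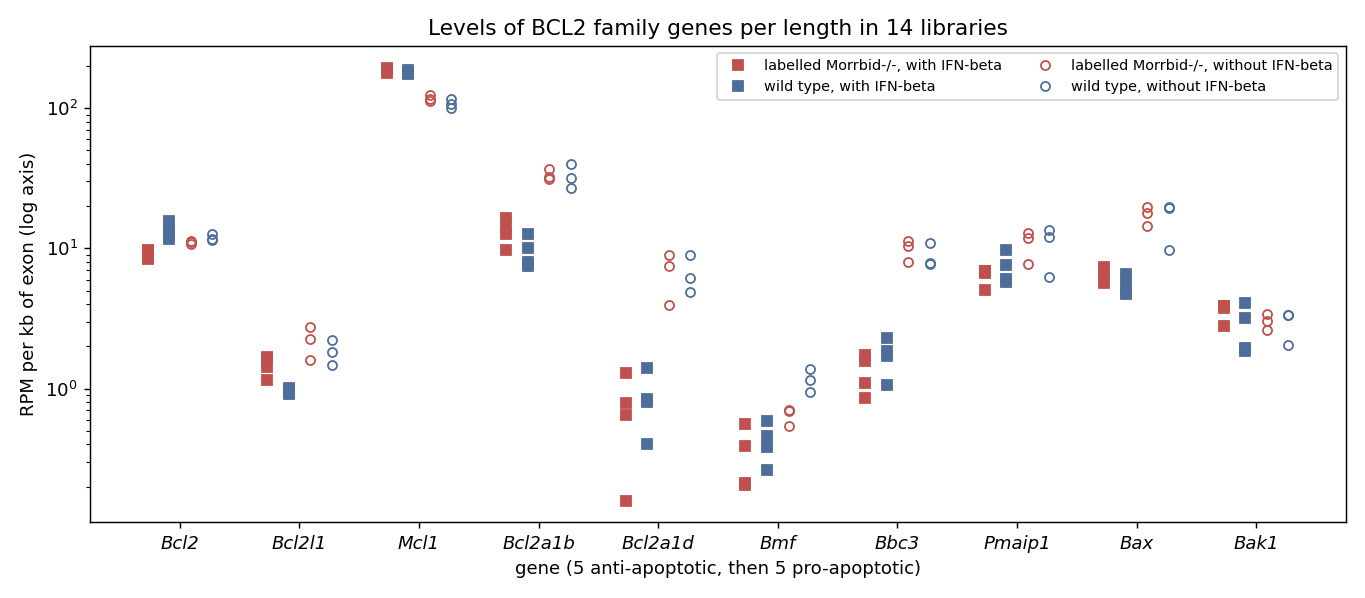
RPM per kb of exon (y axis, log scale) of the 10 members in each of the 14 libraries, as filled squares with IFN-beta and open circles without it, libraries labelled Morrbid-/- in red and wild type in blue. Mcl1 is the highest member in every library. For Bcl2 the libraries labelled Morrbid-/- all lie below the wild-type ones of their setting on this scale. They lie at 8.39 to 9.78 against 11.6 to 15.8 RPM per kb with IFN-beta, and at 10.7 to 11.4 against 11.5 to 12.7 without it.

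The rest of the apoptosis machinery was read from 4 lists of genes. Of 16 other BCL2 relatives, 7 were tested with IFN-beta, and 2 fell, against 4.84% of all genes tested. These were Bcl2l11, and Bnip3l, a mitophagy receptor, with 776 ± 60.1 normalized counts in libraries labelled Morrbid-/- and 900 ± 28.9 in wild-type libraries (log2 change -0.22, SE 0.07, limma's adjusted p 0.044). An unadjusted p under 0.05 was found for 3 of the 7, and the gene Bad among them was higher in libraries labelled Morrbid-/- without passing. Bad had 22.8 to 30.6 normalized counts in libraries labelled Morrbid-/- and 9.22 to 22.4 in wild-type libraries, without overlap. Its log2 change was 0.82 (SE 0.29), with limma's adjusted p of 0.073. Of 15 genes of the apoptosome, the caspases and their inhibitors, 13 were tested, none passed and 1 had an unadjusted p under 0.05, against 2434 of all 9964 genes. That was Apaf1, the scaffold of the apoptosome, which had a log2 change of 0.22 with an adjusted p of 0.138. Aifm1, which encodes the mitochondrial protein AIF, had one of 0.35 with an adjusted p of 0.248. Of 12 genes for turnover and partners of BCL2 proteins, 11 were tested, none passed and 2 had an unadjusted p under 0.05. Of these, Bcap31, an endoplasmic reticulum partner of BCL2, had a log2 change of -0.29 with an adjusted p of 0.068, and Fbxw7, part of a ubiquitin ligase for MCL1, one of 0.20 with an adjusted p of 0.105.

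Of 16 transcription factors that are known to act on BCL2 family genes, 14 were tested with IFN-beta, and 6 rose and none fell in libraries labelled Morrbid-/-, where 5.25% of all genes tested rose. An unadjusted p under 0.05 in limma was found for 9 of the 14, against 2434 of all 9964 genes. The median log2 change of the list was 0.24, against 0.0015 over all genes tested. The list was chosen with earlier results of these data known, so these values describe it and do not test it. Of the NF-kappaB family, Rela averaged 554 ± 31.7 normalized counts in libraries labelled Morrbid-/- and 349 ± 37.1 in wild-type libraries, which is a log2 change of 0.67 with an SE of 0.08 and, in limma, an adjusted p of 1e-05. Nfkb1 (log2 change 0.41, adjusted p 7.7e-05), Relb (0.43, adjusted p 4.2e-04) and Nfkb2 (0.18, adjusted p 0.040) also rose in the same limma fit. Myb, a factor of lymphocyte progenitors, averaged 1094 ± 81.6 in libraries labelled Morrbid-/- and 758 ± 44.2 in wild-type libraries (log2 change 0.53; limma, adjusted p 1.7e-05). Atf4, a factor of the stress response, rose by 0.28 on the log2 scale with an adjusted p of 0.020 in limma. Without IFN-beta none of the 14 passed, and 4 had an unadjusted p under 0.05, against 567 of all 9290 genes. The smallest p belonged to Stat3, with a log2 change of 0.31 and an adjusted p of 0.462 in limma, and Rel, with 0.26 and 0.606. The difference between settings passed for none of the 14, and 6 had an unadjusted p under 0.05, against 1090 of all 9078 genes. Rela was nearest at 0.56 with an adjusted p of 0.068 in limma, followed by Ddit3, which encodes the stress factor CHOP, at 1.17 and 0.187.

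In the other 3 lists nothing passed without IFN-beta. Of the 4 tested BCL2 relatives, 2 had an unadjusted p under 0.05 in limma, Bcl2l11 with 300 ± 27.7 normalized counts in libraries labelled Morrbid-/- and 389 ± 68.6 in wild-type libraries (log2 change -0.36, adjusted p 0.424), and Bnip3l with a log2 change of -0.27 and an adjusted p of 0.687. Of the 13 apoptosome and caspase genes and the 11 turnover genes tested, none had an unadjusted p under 0.05. Apaf1 had a log2 change of 0.29 there and Casp9, the caspase that the apoptosome activates, one of 0.46, with adjusted p of 0.814 and 0.913. The turnover genes with the smallest p were the ubiquitin ligase gene March5, with a log2 change of 0.24 and an adjusted p of 0.878, and the dynein light chain gene Dynll2, with 0.41 and 0.898. The difference between settings passed for no gene of these 3 lists, and none had an unadjusted p under 0.05. Those with the smallest p were Bcl2l11 and Bcl2l13 (-0.20) of the relatives, Aifm1 (0.54) and the inhibitor gene Birc2 (-0.12) of the apoptosome list, and Fbxw7 (0.26) and March5 (-0.25) of the turnover list.

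The promoters of the members were searched for the letters of 5 motifs on both strands, over the 250 bases before each start in RefSeq's GRCm38.p6 annotation. Of the 10 members, 9 had an entry, with 15 promoters. The paired GAAA letters of an interferon-stimulated response element, GAAA and GAAA with any 2 bases between them, were in none of them and in 2.98% of all 32851 promoters. TTCNNNGAA, the letters of a STAT site, was also in none and in 7.02% of all. The forkhead letters GTAAACA were in a Bbc3 promoter and in 3.17% of all. The p53 decamer consensus was in promoters of Bmf and Bax and in 7.13% of all, and the kappaB consensus in promoters of Bcl2l1 and Bbc3 and in 7.25% of all. A gene can have several promoters. Counted by gene, the forkhead letters were in 3.54% of all 27025 genes, the p53 consensus in 8.20% and the kappaB consensus in 8.23%. The Bcl2l1 stretch is shown as an example of a kappaB match, 242 bases before a start, in capitals. The promoters of the other Bcl2l1 starts had no match. Bbc3, whose mean with IFN-beta was lower in libraries labelled Morrbid-/-, had kappaB matches 136 and 137 bases before a start. The part of these matches in the levels was not tested.
Bcl2l1, chr2:152830928-152830967, minus strand: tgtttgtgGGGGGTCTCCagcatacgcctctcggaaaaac
A match is a description of the letters and not a site, and no match draws nothing about a factor.

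Markers of other cells were low or uneven between genotypes. With IFN-beta, 2 of the 6 genes of the dendritic cell list were measured and summed to 44.0 to 52.2 normalized counts in libraries labelled Morrbid-/- and 6.14 to 25.7 in wild-type libraries. Nearly all of this was the transcription factor Zbtb46, while Itgax stayed near 0, at no more than 0.916 in libraries labelled Morrbid-/-. Of the CD4 and regulatory T cell list, 4 of 6 genes were measured and summed to 967 to 1221 in libraries labelled Morrbid-/- and 787 to 886 in wild-type libraries, with Ctla4 and Ikzf2 higher and Foxp3 at 4.56 to 9.16 in libraries labelled Morrbid-/- and 2.05 to 7.08 in wild-type libraries. In libraries labelled Morrbid-/- 2 of 8 B cell genes summed to 12.6 to 28.4, 2 of 10 myeloid genes to 17.4 to 35.0 and 2 of 6 NK cell genes to 0.912 to 3.59. In wild-type libraries these sums were 9.34 to 18.9 for B cell, 13.3 to 16.3 for myeloid and 2.05 to 4.88 for NK cell genes. The other genes of these lists were not analysed here. Without IFN-beta, 4 of the 6 dendritic cell genes summed to 27.4 to 34.8 in libraries labelled Morrbid-/- and 17.0 to 25.2 in wild-type libraries. The sums of the B cell, myeloid, NK cell and CD4 and regulatory T cell lists overlapped between genotypes there. Neither the presence of such cells nor their part in the fall of Bcl2 with IFN-beta was tested. With libraries rescaled to equal totals, the log2 change of Bcl2 was -0.56, and with the share of 16S RNA as a covariate it was -0.72.

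Over the 14 libraries, with each table centred on its own mean, the genes most like Bcl2 among 5766 with a mean of at least 50 were Tcp11l2 (Pearson r 0.92) and Mctp2 (0.92). For Mcl1 they were Bap1 (0.84) and Tbpl1 (0.80). For Pmaip1 they were Tubb4b (0.90) and Tkt (0.88), for Bcl2a1b Rheb (0.86) and Zwint (0.84), and for Bax Secisbp2 (0.84) and Slc4a1ap (0.82). Among the family, Bcl2 had an r of 0.75 with Bcl2l11 and one of -0.51 with Bcl2a1b. The libraries share their genotypes, depth and normalization, so these are descriptions with no test.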

How the data were processed

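Total RNA was sequenced from sorted CD8 T cells, in 14 libraries of 4 groups that the titles give. For each setting, the authors deposited a table of counts divided by a size factor, used here as a signal. The builds GRCm38 and mm10 and the tools DESeq2, featureCounts, STAR 2.5 and Trimmomatic are listed in the submitters' processing notes, while annotation and strand setting are not given. Values were whole multiples of 1 step per library, and dividing by it gave whole reads, within 0.01, for 100% of them.

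The members and the gene lists were chosen with earlier results of these data known. Named genes were all members, Bcl2l11, and of each apoptosis list those past the threshold, or else the 2 with the smallest p. Bad was named as well, because its change went against those of the relatives that passed. Marker genes were named to describe their sums. Lists of marker genes were summed per library.

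Libraries labelled Morrbid-/- were compared with wild type within each table with limma 3.58.1 (R 4.3.3), on log2 of the normalized count plus a pseudocount of 1, two-sided, with a trend of variance on mean. Fold changes are on this scale, on which low genes appear less changed than they are. The test took genes whose mean reached 10, and p-values were Benjamini-Hochberg adjusted over all of them, with a threshold of 0.05. The difference between settings was an interaction contrast. On simulated counts with genes changed 2-fold, the fits recovered 171 of 200 changed genes without IFN-beta (9290 genes) and 187 of 200 with it (9964 genes). False calls numbered 7 without IFN-beta and 2 with it. The simulated noise between libraries was a fixed setting, the same for every gene and not estimated from these data. The simulation therefore does not give the power for smaller changes or for noisier genes. Exon lengths came from GENCODE M21, which matched 13029 of 15036 gene identifiers. The alternatives were 2 other pseudocounts, 2 other filters, 2 other scalings, other limma settings, covariates, 1 fit of all libraries, edgeR 4.0.16 and DESeq2 1.42.0 on the recovered reads, and leaving out each library. The number of genes that passed by edgeR was 1011 with IFN-beta, 59 without it and 114 for the interaction.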

Additional observations from a re-analysis of the deposited data

Results flagged for a closer look

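Of 24 groups of 4 libraries examined, 1 held a library far from the others, and chance gives about 1 such group in 20. Pmaip1 had a normalized count of 93.0 in replicate 4 of the libraries labelled Morrbid-/- with IFN-beta, while the other 3 lay between 119.5 and 122.8.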

How the results depend on the processing

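The fall of Bcl2 with IFN-beta passed the test under all 22 alternatives, with log2 changes of -0.72 to -0.53. The number of genes called moved more. Without IFN-beta 59 genes passed, against 17 for limma without the trend, 103 with the share of 16S RNA as a covariate, 117 in 1 fit of all libraries, and 39 to 74 when a library was left out, the 39 without replicate 2 of the libraries labelled Morrbid-/-. With IFN-beta 1005 passed, against 305 without the trend, 554 in 1 fit of all libraries, and 609 to 1021 when a library was left out, the 609 without replicate 2 of the libraries labelled Morrbid-/-. For the difference between settings 121 passed, against 66 without the trend, 190 with the 16S covariate, and 97 to 143 when a library was left out. Without the trend 2 members passed with IFN-beta, Bcl2 and Bcl2l1. The causes were not tested. The balance without IFN-beta was 0.12 higher in libraries labelled Morrbid-/- as a mean of logs and -0.0096 as a sum per length. When a library was left out, that difference ran from 0.039 (without wild-type replicate 3) to 0.19, and the one with IFN-beta from 0.095 (without replicate 2 of the libraries labelled Morrbid-/-) to 0.25, against 0.18.

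The replicate numbers were not shown to pair the libraries. Same-numbered libraries had correlated deviations of 0.20, -0.02 and 0.15 without IFN-beta and of 0.04, 0.0033, 0.06 and 0.14 with it. With the replicate block, 1421 genes passed with IFN-beta, 169 without it and 311 for the interaction. Among the 311 was 1 member, Bcl2, with limma's adjusted p of 0.044, and Bcl2l11 passed without IFN-beta at 0.012.

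Some small changes that did not pass turned sign. Without IFN-beta, Bcl2a1b was at 0.040 with equal totals and 0.054 with the 16S covariate, Bak1 at -0.027 with quantile normalization and -0.034 with array weights, Bcl2a1d at 0.018 in edgeR and 0.014 in DESeq2, and Pmaip1 at -0.046 in edgeR and -0.032 in DESeq2 (log2 changes). With IFN-beta, Mcl1 was at -0.0014 with array weights. When a library was left out, the changes without IFN-beta ran from -0.030 to 0.42 for Bcl2l1, -0.13 to 0.17 for Bcl2a1b, -0.32 to 0.28 for Bcl2a1d, -0.32 to 0.26 for Pmaip1, -0.21 to 0.30 for Bax and -0.17 to 0.14 for Bak1. Those with IFN-beta ran from -0.019 to 0.035 for Mcl1, -0.32 to -0.057 for Pmaip1, -0.63 to -0.24 for Bbc3, -0.64 to -0.21 for Bmf and 0.23 to 0.59 for Bak1, and the differences between settings from -0.48 to 0.11 for Pmaip1 and -0.087 to 0.42 for Bax. Depth limits Bmf, Bcl2a1d, Bak1 and Bcl2l1 without IFN-beta, with 22 to 68 reads per genotype.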
